A study of Mus musculus with 38 samples.

Results

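The genes described here flank Dnmt3b on mouse chromosome 2. They are 54 protein-coding genes taken by name from both sides of Dnmt3b, of 18300 named genes on the array, and 52 of them had a probe. No probe carried the name of Raly or Cpne1. Eif6, Epb41l1 and Rab5if were found under the older names Itgb4bp, Epb4.1l1 and 1110008F13Rik. On the gene order of the RefSeq table, 17 members lie before Dnmt3b and 37 after it, from Thbd, 94 protein-coding genes before, to Src, 81 after. The measured members were represented by 1 probe in 47 cases, and Cd93, Mapre1, Asip, Cep250 and Rbl1 by several.

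RNA of hypomorphic embryos was hybridised on 2-colour arrays against a pool of wild-type RNA from 5 samples of the same tissue. Thymus of 5 hypomorphic embryos at 18.5 days post coitum (dpc), whose array labels give the Dnmt3b alleles as m3/m24 (3 of the 18 arrays name the embryo only), was set against the wild-type thymus pool. Embryonic fibroblasts of 5 hypomorphic embryos at 12.5 dpc, named by number only in the labels of their 20 arrays, were set against the wild-type fibroblast pool. Hypomorphic and wild-type embryos shared a hybrid background of 129SvJae and C57BL/6, and the labels do not say which strain gave the chromosome 2 segment of any embryo or of the pools. Each value below is a log2 ratio of hypomorph over pool for 1 embryo, averaged over both dye orientations. Array medians were subtracted first, so 0 is the median ratio of an array and 1 is a doubling. Above or below the pool means above or below this 0. Across spots, arrays of 1 thymus embryo in opposite orientations correlated at r from -0.544 to -0.244. In fibroblasts r was -0.733 to -0.165 in embryos 1, 4 and 5. It was -0.24 to 0.013 in embryo 2 and 0.048 to 0.19 in embryo 3. Most embryo values are thus averages of opposing dye profiles. The labels do not state which RNA is on top of the deposited ratio. Hypomorph over pool is the likely direction, judged by germ cell genes that DNA methylation silences in somatic tissue. The study's paper gives such genes as higher in hypomorphs, and most values here were positive. Slc25a31 averaged 2.23 in thymus and 1.16 in fibroblasts, Tex11 1.85 and 1.02, and Ddx4 0.93 and 1.03, each positive in all 10 embryos. Syce1 (1.28 and 0.31) and Mael (0.58 and 0.36) were so too. Smc1b and Stag3 were weaker. Smc1b averaged 0.25 and 0.11, with 4 of 5 fibroblast embryos above the pool, and Stag3 0.33 and -0.03, with 1 of 5. In the opposite direction every sign below would turn. Nothing in the labels says whether the fibroblasts of an embryo were 1 culture or several, and the ratios cannot check either tissue for the presence of its defining markers.

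Dnmt3b encodes a de novo DNA methyltransferase, an enzyme that adds methyl groups to cytosines of CpG dinucleotides and is active in the early embryo. An allele made in stem cells of one mouse strain and crossed into another keeps the donor strain's DNA on both sides of the altered gene, because recombination seldom separates close neighbours. Genes of such a segment can therefore differ between mutant and wild-type littermates through the donor strain's own regulatory variants. The question put to the data was whether the flanking genes shifted the same way in every hypomorphic embryo. A donor segment and the Dnmt3b alleles it carries cannot be told apart in this design.

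Dnmt3b itself stood near the pool in both tissues. Its log2 ratios were -0.05, -0.30, 0.13, -0.09 and -0.07 in hypomorphic thymus embryos 1 to 5 (mean -0.08 ± 0.15, SD, n = 5, adjusted p = 0.917 by limma). In hypomorphic fibroblasts they were 0.00, 0.18, 0.11, -0.01 and 0.25 (mean 0.11 ± 0.11, SD, n = 5, adjusted p = 0.359 by limma). The labels do not state what the alleles change, so the level of the transcript does not check the genotype.

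The flanking genes did not share a direction. In thymus 27 of the 52 measured members had a mean above the pool and 25 below, with means between -0.33 and 0.27 and a median of 0.00. In fibroblasts the split was again 27 above and 25 below, with means between -0.71 and 0.80 and a median of 0.00. Of 18156 named genes, 9981 had means above the pool in thymus and 9128 in fibroblasts. The median absolute mean of the members was 0.07 in thymus, against 0.05 over all named genes, and 0.10 in fibroblasts, against 0.06 over all named genes. In the fit of all features with limma against the pool, whose own spread is not in the test, 0 of 52 members passed an adjusted p of 0.05 in thymus, where 0.0228% of all features did, and 0 passed in fibroblasts, where 0.00454% did. At an unadjusted p under 0.05 there were 10 members in thymus (19.2%, against 7.48% of all features) and 15 in fibroblasts (28.8%, against 16.1%).

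**Figure D1:**
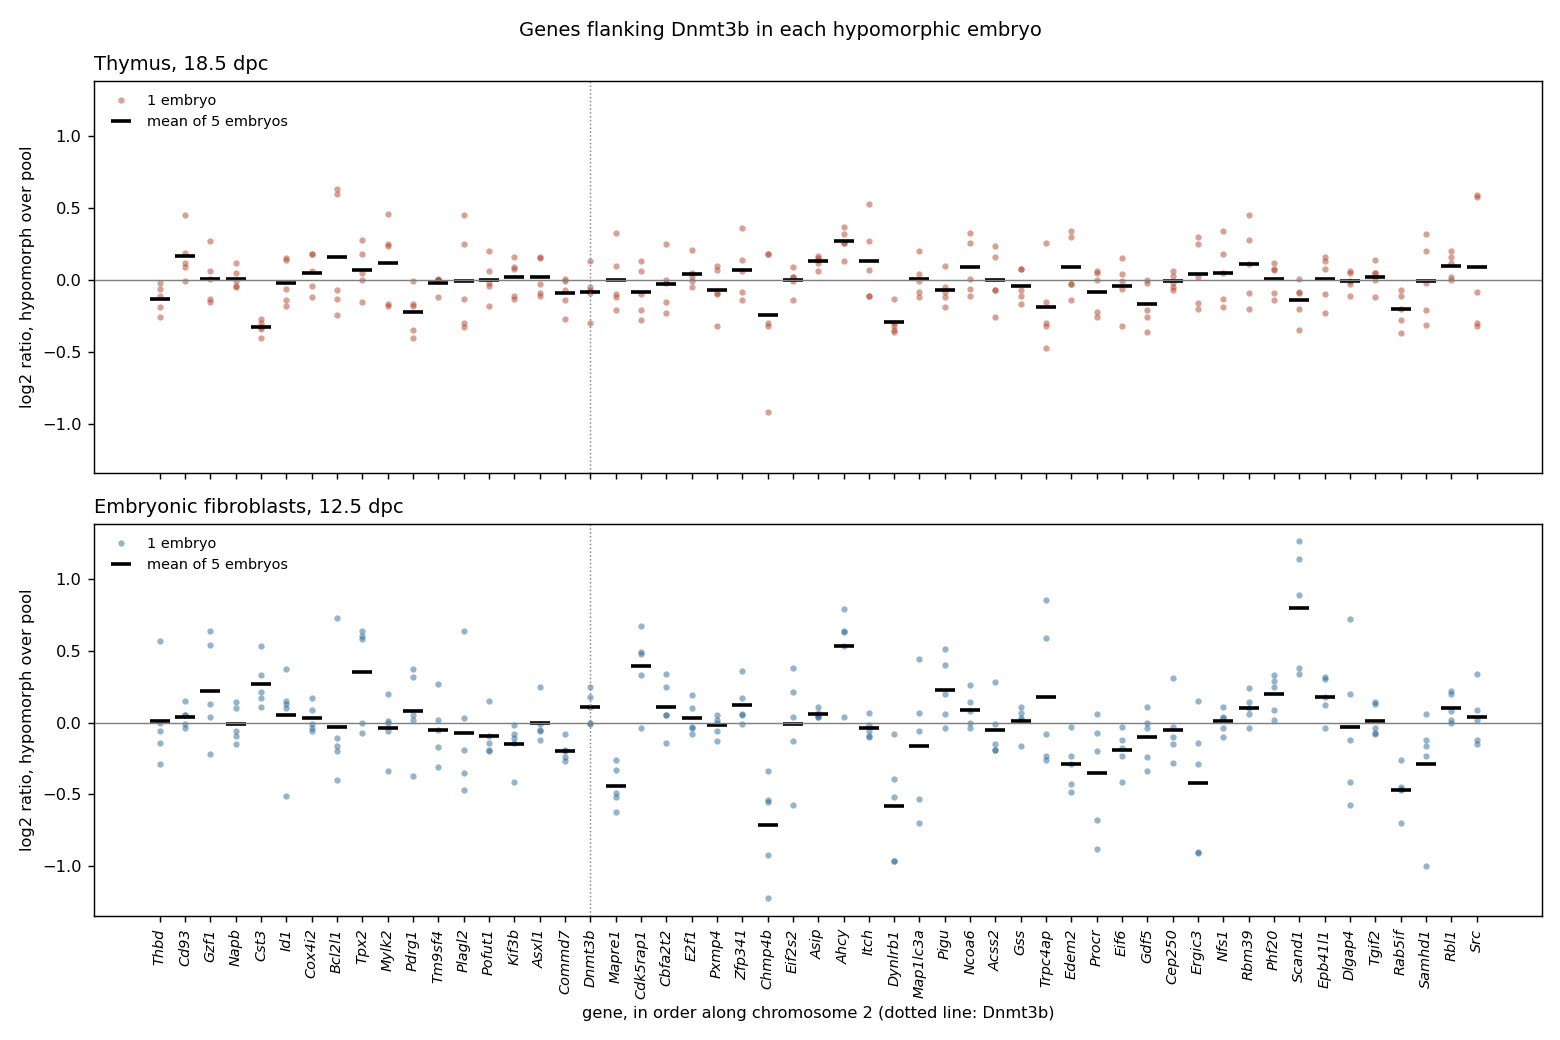
Log2 ratio of hypomorph over pool (y axis) for the 52 measured members and Dnmt3b, in gene order along chromosome 2 (x axis), with 1 point per embryo and a bar at the mean of 5 embryos, thymus above and fibroblasts below. Members above and below 0 are interspersed along the chromosome, and the fibroblast means (-0.71 to 0.80) are spread more widely than the thymus means (-0.33 to 0.27).

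A single sign in all embryos was found for a minority of members. The 5 embryos of a tissue share 1 pool, so a deviation of that pool for a gene moves all 5 ratios the same way. Their signs are therefore not independent, here and in the counts across both tissues. In thymus 8 of 52 members lay on 1 side of the pool in all 5 hypomorphic embryos (15.4%), against 8.85% of all named genes. The 2 members above it were Ahcy and Asip (3.73% of named genes were above it throughout), and the 6 below it were Thbd, Cst3, Pdrg1, Dynlrb1, Gdf5 and Rab5if (5.12% of named genes). In fibroblasts 13 of 52 did so (25%), against 17.3% of named genes. The 5 above the pool there were Cst3, Asip, Ahcy, Phf20 and Scand1 (8.26% of named genes), and the 8 below it were Kif3b, Commd7, Mapre1, Chmp4b, Dynlrb1, Edem2, Eif6 and Rab5if (9.04% of named genes). Values as deposited turned the balance of directions, with 3 above and 2 below in thymus and 8 above and 5 below in fibroblasts. Among the centred values, the dye orientations taken apart gave means of 1 sign for 5 of the 8 in thymus (not Asip, Gdf5 or Thbd) and for 11 of the 13 in fibroblasts (not Asip or Commd7). Of all named genes with 1 sign in a tissue, 53.5% in thymus and 62.6% in fibroblasts did so.

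Across both tissues, 4 of 52 members kept 1 sign in all 10 embryos (7.69%), against 0.65% of named genes (118 of 18156). Ahcy and Asip were above the pool throughout, and Dynlrb1 and Rab5if below it. Of the 80 other protein-coding genes that lie between the outermost members and were tested in both tissues, 0 did so, and of 1309 named genes elsewhere on chromosome 2 there were 14 (1.07%). These other genes of the interval had a median absolute mean of 0.04 in thymus and 0.07 in fibroblasts, and 0 of 80 passed in either tissue. At an unadjusted p under 0.05 there were 13 of them in thymus (16.2%, against 19.2% of members and 7.48% of all features). In fibroblasts there were 14 (17.5%, against 28.8% and 16.1%). In each tissue 11 of the 80 had 1 sign in all 5 embryos (13.8%). The shares of members were 15.4% in thymus and 25% in fibroblasts, and those of named genes 8.85% and 17.3%. With values as deposited, not centred, the count in all 10 embryos was 2 of 52 (Ahcy above and Dynlrb1 below the pool), against 0.446% of named genes. The members were chosen by name with earlier results of these arrays known, so the difference from the other genes of the interval is a description.

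**Figure D2:**
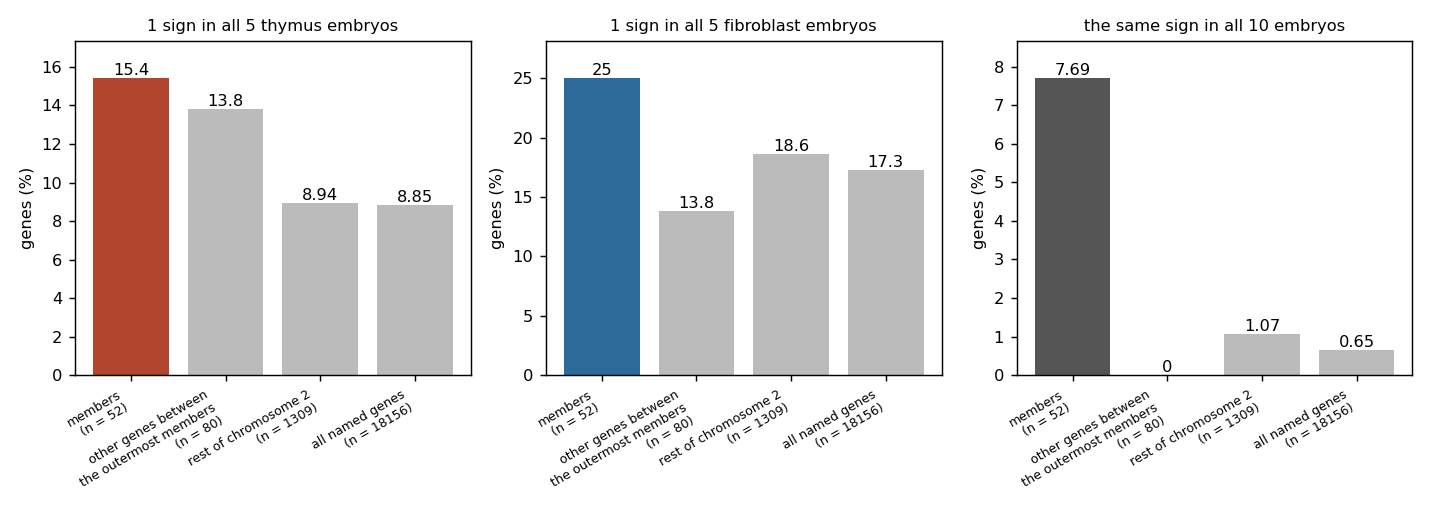
Share of genes in percent (y axis) that lay on 1 side of the pool in all 5 thymus embryos, in all 5 fibroblast embryos, and on the same side in all 10, for the 52 measured members, the 80 other genes of the interval, 1309 other genes of chromosome 2 and 18156 named genes. The bars show 7.69% of members and 0.65% of all named genes with 1 sign in all 10 embryos.

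Ahcy encodes adenosylhomocysteinase, which breaks down S-adenosylhomocysteine, the by-product and inhibitor of DNA methyltransferases and other methyltransferases. In hypomorphic thymus its log2 ratios were 0.32, 0.26, 0.13, 0.37 and 0.26, a mean of 0.27 ± 0.09 (SD, n = 5, adjusted p = 0.209 by limma). In hypomorphic fibroblasts they were 0.53, 0.79, 0.63, 0.04 and 0.64, a mean of 0.53 ± 0.29 or 1.44-fold (SD, n = 5, adjusted p = 0.151 by limma). Every embryo was above its pool, and fibroblast embryo 4 was the one closest to it. Ahcy was the highest member in thymus and the second highest in fibroblasts. Without fibroblast embryo 4, the embryo nearest the pool, the fibroblast mean was 0.65 and the adjusted p by limma was 0.0494, in a setting where 0.172% of all features passed. Without any other single fibroblast embryo the adjusted p lay between 0.196 and 0.475. Both dye orientations gave positive means, 0.42 with the hypomorph in Cy5 and 0.12 with it in Cy3 in thymus, and 0.61 and 0.45 in fibroblasts. On single arrays Ahcy was above the array median on 15 of 18 in thymus and 18 of 20 in fibroblasts.

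Dynlrb1 encodes a roadblock-type light chain of cytoplasmic dynein, the motor that carries cargo toward microtubule minus ends. Its log2 ratios were -0.35, -0.30, -0.13, -0.36 and -0.32 in hypomorphic thymus (mean -0.29 ± 0.09, SD, n = 5, adjusted p = 0.170 by limma). In hypomorphic fibroblasts they were -0.39, -0.96, -0.96, -0.08 and -0.52 (mean -0.58 ± 0.38, SD, n = 5, adjusted p = 0.184 by limma). All 10 embryos were below the pool, and fibroblast embryos 2 and 3 were the lowest. With the hypomorph in Cy5 the thymus arrays were split, with 4 of 9 above and 4 below 0 (median 0.00), while all 9 arrays with it in Cy3 were below 0 (median -0.49). In fibroblasts 9 of 10 arrays were below 0 in each orientation.

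The array titles of the fibroblasts begin with AYT for embryos 4 and 5 and for 3 arrays of embryo 1, and with AYX or AYY for embryos 2 and 3 and the remaining array of embryo 1. The labels do not say what these prefixes stand for. On the AYX and AYY arrays of embryos 2 and 3 Dynlrb1 averaged -0.96, and on the AYT arrays of embryos 1, 4 and 5 it averaged -0.22. The same split gave 0.71 and 0.34 for Ahcy. For Rab5if it gave -0.47 and -0.48. The sign of these means was thus the same within each set of titles, and the size of Dynlrb1 and Ahcy moved with it. Within embryo 1, Dynlrb1 was at -0.08, -0.16 and -0.03 on the AYT arrays and at -1.27 on the AYY array. Ahcy was at 0.62, 0.41 and 0.18 there and at 0.92 on the AYY array. The part of the title sets in these values was not tested.

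Rab5if encodes a Rab5-interacting factor and lies 69 genes after Dnmt3b. It was at -0.37, -0.11, -0.28, -0.07 and -0.20 in hypomorphic thymus (mean -0.20 ± 0.12, SD, n = 5, adjusted p = 0.402 by limma). In hypomorphic fibroblasts it was at -0.45, -0.46, -0.47, -0.26 and -0.70 (mean -0.47 ± 0.16, SD, n = 5, adjusted p = 0.128 by limma). All embryos were below the pool, and in thymus embryos 2 and 4 were closest to it. A single fibroblast array, array 4 of embryo 4, stood at 1.15, while the other 19 were below 0. Without that array, which correlated negatively with the other arrays of its embryo after the common dye profile was removed (mean r -0.133 across features), the mean was -0.55 and the adjusted p by limma was 0.0356. In that setting 0.378% of all features passed, and Mapre1 was the other member that did. Arrays 2 and 4 of embryo 1 also correlated negatively with the other arrays of their embryo (mean r -0.032 and -0.185). Without all 3 arrays the Rab5if mean was -0.54 and the adjusted p was 0.0668, and 0 of 52 members passed (0.032% of features).

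Asip, the agouti signalling protein whose recessive allele gives C57BL/6 mice their black coat and whose dominant alleles give an agouti coat, lies next to Ahcy. Averaged over its 3 probes it was at 0.06, 0.15, 0.17, 0.14 and 0.12 in hypomorphic thymus (mean 0.13 ± 0.04, SD, n = 5, adjusted p = 0.486 by limma). In hypomorphic fibroblasts it was at 0.11, 0.07, 0.05, 0.04 and 0.04 (mean 0.06 ± 0.03, SD, n = 5, adjusted p = 0.387 by limma). These small values differed between its probes and between the dye orientations. The probe means in thymus were 0.37, 0.02 and 0.00, and none of the 3 probes had 1 sign in all 10 embryos. With the hypomorph in Cy5 Asip averaged -0.18 in thymus and -0.21 in fibroblasts, and with it in Cy3 the averages were 0.44 and 0.33.

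**Figure D3:**
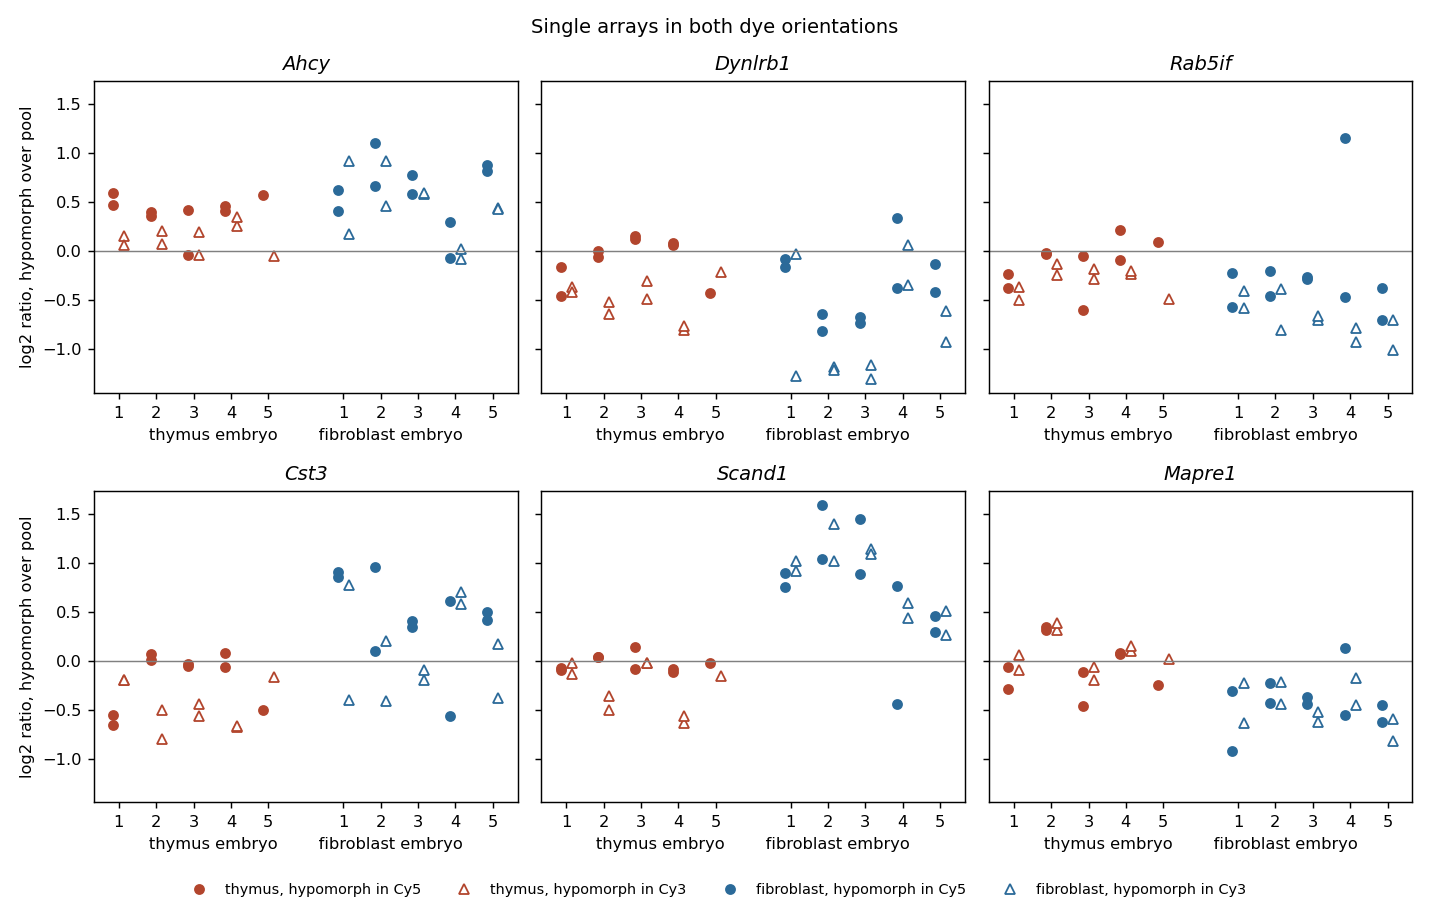
Log2 ratio of hypomorph over pool on every single array (y axis) for Ahcy, Dynlrb1, Rab5if, Cst3, Scand1 and Mapre1, by thymus embryo and fibroblast embryo (x axis), with filled circles for the hypomorph in Cy5 and open triangles for it in Cy3. Ahcy lies above 0 on 15 of 18 thymus and 18 of 20 fibroblast arrays, and the 1 high Rab5if point in fibroblasts (1.15) is array 4 of embryo 4.

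Ahcy and Dynlrb1 are separated on the chromosome by Itch alone, and Asip is on the other side of Ahcy. Itch, a ubiquitin ligase that restrains T cell activation, did not share their behaviour. It was at 0.07, -0.11, 0.53, -0.11 and 0.27 in hypomorphic thymus (mean 0.13 ± 0.27, SD, n = 5) and averaged -0.04 ± 0.07 in hypomorphic fibroblasts (SD, n = 5). Its embryos were on both sides of the pool in both tissues. Map1lc3a, an LC3 protein of autophagosomes next to Dynlrb1 on the far side, averaged 0.01 ± 0.12 in thymus and -0.16 ± 0.46 in fibroblasts (SD, n = 5 each), with fibroblast embryos 2 and 3 at -0.70 and -0.53 and embryo 5 at 0.44.

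The 250 bases upstream of the start of Cst3 and of the 4 members with 1 sign in all 10 embryos are shown because cytosines of CpG dinucleotides are the substrate of Dnmt3b. They are from RefSeq on GRCm38.p6, read 5′ to 3′ on the strand of the gene, with the C and G of each CpG in capitals. They lie at chr2:155074498-155074747 (minus strand) for Ahcy, chr2:155013320-155013569 (plus strand) for Asip, chr2:155236283-155236532 (plus strand) for Dynlrb1, chr2:156862872-156863121 (plus strand) for Rab5if and chr2:148875513-148875762 (minus strand) for Cst3.
Ahcy: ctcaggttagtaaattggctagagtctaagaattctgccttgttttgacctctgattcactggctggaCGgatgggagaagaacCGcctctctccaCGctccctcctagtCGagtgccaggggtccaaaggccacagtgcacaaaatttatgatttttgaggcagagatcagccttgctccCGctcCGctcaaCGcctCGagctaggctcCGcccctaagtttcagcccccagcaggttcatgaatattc
Asip: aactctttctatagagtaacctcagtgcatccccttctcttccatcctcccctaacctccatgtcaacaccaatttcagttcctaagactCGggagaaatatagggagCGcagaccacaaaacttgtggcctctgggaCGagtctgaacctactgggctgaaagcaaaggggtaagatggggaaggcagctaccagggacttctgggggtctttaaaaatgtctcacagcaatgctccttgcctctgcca
Dynlrb1: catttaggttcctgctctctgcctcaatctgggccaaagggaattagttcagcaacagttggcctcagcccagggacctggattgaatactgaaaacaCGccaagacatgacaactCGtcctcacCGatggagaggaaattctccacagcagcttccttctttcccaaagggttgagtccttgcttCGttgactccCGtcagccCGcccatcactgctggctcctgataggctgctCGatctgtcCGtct
Rab5if: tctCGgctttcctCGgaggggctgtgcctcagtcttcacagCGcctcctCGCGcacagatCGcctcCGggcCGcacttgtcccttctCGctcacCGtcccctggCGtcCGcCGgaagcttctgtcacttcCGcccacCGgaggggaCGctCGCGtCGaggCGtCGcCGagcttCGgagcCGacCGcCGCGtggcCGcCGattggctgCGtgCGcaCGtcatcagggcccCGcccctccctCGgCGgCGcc
Cst3: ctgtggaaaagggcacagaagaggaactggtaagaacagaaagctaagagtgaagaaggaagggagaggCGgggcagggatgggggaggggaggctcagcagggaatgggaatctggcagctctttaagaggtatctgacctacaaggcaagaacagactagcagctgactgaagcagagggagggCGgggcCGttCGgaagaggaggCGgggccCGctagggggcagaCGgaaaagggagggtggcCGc
Ahcy has 9 CpG in this window, Asip 3, Dynlrb1 8, Cst3 8 and Rab5if 36. Over the 41 measured members found in the promoter table the count ranged from 1 to 43 with a median of 15, against a median of 6 over all 32851 listed starts. The sequence TCCCGC or its reverse complement GCGGGA, the core bound by E2F factors including E2F6, was present in 13 of 41 members (31.7%), Ahcy among them, and in 16.9% of all starts. Members count 1 start per gene, while a gene can have several among all starts. The motif itself holds a CpG, and the CpG medians of these sets differed. The shares therefore do not compare like with like, and an enrichment of the motif was not tested. DNA methylation was not measured on these arrays.

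Cst3 is the member that passed in the test of thymus minus fibroblasts, and the call was lost in some settings. It encodes cystatin C, a secreted inhibitor of cysteine proteases that is abundant in macrophages and dendritic cells and lies 81 genes before Dnmt3b. In hypomorphic thymus its log2 ratios were -0.40, -0.30, -0.27, -0.34 and -0.33 (mean -0.33 ± 0.05 or 1.26-fold lower, SD, n = 5, adjusted p = 0.0811 by limma). In hypomorphic fibroblasts they were 0.53, 0.21, 0.11, 0.33 and 0.17 (mean 0.27 ± 0.17, SD, n = 5, adjusted p = 0.184 by limma). All 5 thymus embryos were below their pool and all 5 fibroblast embryos above theirs. Fixed signs that are opposite in the tissues were seen for 1.08% of named genes. Thymus minus fibroblasts was -0.60 ± 0.08 (SE, 10 embryos, adjusted p = 0.0241 by limma). The tissues have different pools, each 1 control sample, and the SE of such a difference does not hold the spread of either pool. Cst3 was 1 of 52 members to pass in that comparison, where 0.412% of all features passed. The adjusted p lay between 0.0562 and 0.0849 when fibroblast embryo 2 or any single thymus embryo was left out, with differences of -0.58 to -0.61. It was 0.0759 with the embryo number as a block.

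The single arrays of Cst3 were less even than its embryo means. In thymus all 9 arrays with the hypomorph in Cy3 were below 0 (median -0.50), and 6 of 9 with it in Cy5 were (median -0.05). In fibroblasts 9 of 10 arrays with the hypomorph in Cy5 were above 0, and 5 of 10 with it in Cy3. The fibroblast mean was 0.16 on the AYX and AYY arrays of embryos 2 and 3 and 0.44 on the AYT arrays of the other embryos. Within fibroblast embryo 1, Cst3 was at 0.85, 0.90 and 0.77 on the AYT arrays and at -0.40 on the AYY array. Markers of myeloid cells had a median of -0.03 in thymus, with 7 of 9 below the pool (means from -0.23 to 0.03), and of 0.01 in fibroblasts, with 4 of 9 below it. Fibroblast markers had a median of -0.08 in thymus, with 11 of 12 below the pool (means from -0.42 to 0.07). In fibroblasts their median was 0.23, with 10 of 12 above the pool (means from -0.56 to 1.40). There 0 of 12 had 1 sign in all 5 embryos, and the medians by embryo were 0.03, 0.11, 0.87, 0.11 and -0.14. In tissue RNA fewer cells of a type and less RNA per cell cannot be told apart, and the part of these cells in the Cst3 values was not tested.

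Members of membrane traffic, the endoplasmic reticulum and autophagy were mostly below the pool in fibroblasts. Of the 9 measured, 5 had a mean below it in hypomorphic thymus (median -0.02, against 0.01 over all named genes) and 8 did in hypomorphic fibroblasts (median -0.20, against 0.00). Of 18156 named genes, 8175 had means below it in thymus and 9028 in fibroblasts. Chmp4b, a subunit of the ESCRT-III machinery that cuts membrane necks, had the lowest mean of all members in fibroblasts. In hypomorphic thymus it was at -0.32, 0.18, -0.30, 0.18 and -0.92 (mean -0.24 ± 0.45, SD, n = 5), on both sides of the pool. In hypomorphic fibroblasts it was at -0.54, -0.55, -1.22, -0.34 and -0.92 (mean -0.71 ± 0.35 or 1.64-fold lower, SD, n = 5, adjusted p = 0.145 by limma). All 5 fibroblast embryos were below the pool, as were 19 of 20 arrays.

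Commd7, a COMM domain protein of endosomal recycling, is the gene next to Dnmt3b on the side before it. It averaged -0.09 ± 0.11 in hypomorphic thymus (SD, n = 5). In hypomorphic fibroblasts it was at -0.27, -0.20, -0.19, -0.08 and -0.24 (mean -0.20 ± 0.07, SD, n = 5, adjusted p = 0.151 by limma). All 5 fibroblast embryos were below the pool, but the mean was 0.05 with the hypomorph in Cy5 and -0.44 with it in Cy3. Edem2, which takes part in clearing misfolded glycoproteins from the endoplasmic reticulum, averaged 0.09 ± 0.22 in thymus and -0.29 ± 0.18 in fibroblasts, where all 5 embryos were below the pool (SD, n = 5 each). Ergic3, a protein of the compartment between the endoplasmic reticulum and the Golgi, averaged -0.42 ± 0.47 in fibroblasts, with embryos 2 and 3 at -0.90 and -0.91 and the other embryos between -0.29 and 0.15. Pigu, a subunit of the enzyme that attaches GPI anchors, was the exception of the group in fibroblasts with a mean of 0.23 ± 0.23 (SD, n = 5). Napb and Tm9sf4 averaged -0.01 and -0.05 there.

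Cytoskeletal and spindle members were split in both tissues. Of 8 measured, 3 had means below the pool in thymus (median 0.00) and 6 in fibroblasts (median -0.04). The counts below it over 18156 named genes were 8175 and 9028. Mapre1, the microtubule plus-end protein EB1, is the nearest gene after Dnmt3b. It was at -0.10, 0.33, -0.21, 0.10 and -0.12 in hypomorphic thymus (mean 0.00 ± 0.22, SD, n = 5). In hypomorphic fibroblasts it was at -0.52, -0.33, -0.49, -0.26 and -0.62 (mean -0.44 ± 0.15, SD, n = 5, adjusted p = 0.128 by limma). The thymus embryos were on both sides of the pool, while all fibroblast embryos were below it. Thymus minus fibroblasts was 0.45 ± 0.11 (SE, adjusted p = 0.0986 by limma). The orientations gave -0.42 and -0.47 in fibroblasts, and without array 4 of embryo 4 the mean was -0.48 with an adjusted p of 0.0366 by limma. Without that array and arrays 2 and 4 of embryo 1 the mean was -0.53 and the adjusted p was 0.0861. Its probes differed in size, with fibroblast means of -0.21 ± 0.13 and -0.68 ± 0.26 (SD, n = 5 each).

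Tpx2, a spindle assembly factor that activates Aurora A, averaged 0.07 ± 0.17 in hypomorphic thymus (SD, n = 5), where 19 cell cycle markers had medians of 0.07 to 0.36 in the 5 embryos and 17 of them had means above the pool. Tpx2 was at 0.64, 0.58, 0.00, -0.07 and 0.60 in hypomorphic fibroblasts (mean 0.35 ± 0.35, SD, n = 5, adjusted p = 0.286 by limma). Embryos 1, 2 and 5 were high and embryos 3 and 4 at the pool. The median of those markers in the same fibroblast embryos was 0.45, 0.30, -0.17, 0.09 and 0.59. The part of proliferation in the Tpx2 values was not tested. Kif3b, a kinesin-2 motor subunit of intracellular and ciliary transport, averaged 0.02 ± 0.13 in thymus and -0.15 ± 0.15 in fibroblasts, where all 5 embryos were below the pool (SD, n = 5 each).

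Among the 12 measured members of transcription and chromatin, 8 had means above the pool in thymus (median 0.01) and 11 in fibroblasts (median 0.09). The counts above it over 18156 named genes were 9981 and 9128. Scand1, a SCAN domain protein without zinc fingers, had the highest mean of all members in fibroblasts. It was at -0.08, -0.20, 0.01, -0.35 and -0.09 in hypomorphic thymus (mean -0.14 ± 0.14, SD, n = 5, adjusted p = 0.667 by limma). In hypomorphic fibroblasts Scand1 was at 0.89, 1.26, 1.14, 0.34 and 0.38 (mean 0.80 ± 0.43 or 1.74-fold, SD, n = 5, adjusted p = 0.151 by limma). Every thymus embryo was below every fibroblast embryo. Thymus minus fibroblasts was -0.94 ± 0.18 (SE) and did not pass, with an adjusted p of 0.0529 by limma. In fibroblasts 19 of 20 arrays were above 0, and the mean was 1.20 on the AYX and AYY arrays of embryos 2 and 3 and 0.53 on the AYT arrays of the other embryos.

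The remaining transcriptional members stayed closer to the pool. Phf20, a reader protein of a histone acetyltransferase complex, averaged 0.01 ± 0.12 in thymus and 0.20 ± 0.13 in fibroblasts, where all 5 embryos were above the pool (SD, n = 5 each). Gzf1, a zinc finger repressor, averaged 0.01 ± 0.17 in thymus and 0.22 ± 0.36 in fibroblasts. E2f1, a cell cycle transcription factor, averaged 0.04 ± 0.10 in thymus and 0.03 ± 0.12 in fibroblasts. Asxl1, a chromatin regulator 3 genes before Dnmt3b, averaged 0.02 ± 0.13 in thymus and 0.00 ± 0.14 in fibroblasts. The embryos of each of Gzf1, E2f1 and Asxl1 were on both sides of the pool in both tissues.

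The 8 measured members of metabolism and mitochondria had a median of 0.00 in thymus and 0.01 in fibroblasts, and Ahcy was the member with 1 sign in every embryo of either tissue. Cdk5rap1, an enzyme that modifies mitochondrial transfer RNA, was at -0.21, 0.13, -0.28, 0.06 and -0.10 in hypomorphic thymus (mean -0.08 ± 0.17, SD, n = 5, adjusted p = 0.917 by limma). It was at 0.33, 0.67, 0.49, 0.48 and -0.04 in hypomorphic fibroblasts (mean 0.39 ± 0.27, SD, n = 5, adjusted p = 0.194 by limma). Fibroblast embryo 5 was at the pool and the other fibroblast embryos were above all thymus embryos. Samhd1, a deoxynucleotide hydrolase, averaged -0.29 ± 0.41 in fibroblasts, where embryo 3 was the lowest and the other embryos lay between -0.23 and 0.06. Of the 3 measured members of RNA binding and translation, Eif6, a factor that keeps ribosomal subunits apart, averaged -0.04 ± 0.17 in thymus and was below the pool in all 5 fibroblast embryos (mean -0.19 ± 0.14, SD, n = 5 each).

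Secreted, surface, signalling and survival members supplied most of the single-sign values in thymus. Of the 12 measured, 5 had 1 sign in all thymus embryos (41.7%, against 8.85% of named genes). In all fibroblast embryos 2 did (16.7%, against 17.3%). The dye orientations gave opposite signs in thymus for Thbd, Gdf5 and Asip, and the same sign for Cst3 and Pdrg1. Pdrg1, a prefoldin-like protein named for its regulation by p53 and DNA damage, was at -0.17, -0.01, -0.18, -0.35 and -0.40 in hypomorphic thymus (mean -0.22 ± 0.16, SD, n = 5, adjusted p = 0.451 by limma). It averaged 0.08 ± 0.29 in hypomorphic fibroblasts, with embryos on both sides of the pool. Thbd, the thrombin receptor of endothelium, averaged -0.13 ± 0.10 in thymus with all 5 embryos below the pool, and 0.01 ± 0.33 in fibroblasts (SD, n = 5 each). Its thymus mean was -0.46 with the hypomorph in Cy5 and 0.20 with it in Cy3. Gdf5, a growth factor of joint formation, averaged -0.17 ± 0.15 in thymus, again below the pool in all 5 embryos, and -0.10 ± 0.18 in fibroblasts. The orientations of Gdf5 were far apart in thymus, at -1.62 with the hypomorph in Cy5 and 1.28 with it in Cy3, so its small mean is what remained of 2 opposite values.

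The other members known from endothelium had embryos on both sides of the pool in thymus. Cd93, a surface glycoprotein of endothelium and early blood cells next to Thbd, was at 0.09, 0.12, -0.01, 0.45 and 0.19 in hypomorphic thymus (mean 0.17 ± 0.18, SD, n = 5, adjusted p = 0.667 by limma), with probe means of 0.25 and 0.08. In hypomorphic fibroblasts it averaged 0.04 ± 0.07 (SD, n = 5). Procr, the endothelial receptor of protein C, averaged -0.08 ± 0.16 in thymus and -0.35 ± 0.41 in fibroblasts, with fibroblast embryos 1 and 5 at -0.68 and -0.88. The median of 12 endothelial markers was 0.02 in thymus, with means from -0.09 to 0.13, and -0.01 in fibroblasts, with means from -0.12 to 0.31.

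Several members went one way in thymus embryos 2 and 4 and the other way in embryos 1, 3 and 5. Bcl2l1, which encodes the survival protein Bcl-xL of double-positive thymocytes, was at -0.24, 0.63, -0.13, 0.60 and -0.07 in hypomorphic thymus (mean 0.16 ± 0.42, SD, n = 5). Src, a tyrosine kinase and the last member along the chromosome, was at -0.32, 0.58, -0.30, 0.59 and -0.08 (mean 0.09 ± 0.46, SD, n = 5). In both genes embryos 2 and 4 were above the pool and the other embryos below it. Such a split of signs was seen for 19 of 52 members (36.5%), 12 of them above the pool in embryos 2 and 4, and for 31.4% of all named genes. The median of 14 thymocyte markers was -0.28, 0.24, -0.17, 0.06 and -0.22 in embryos 1 to 5. Before centring, array medians of embryos 2 and 4 were 0.979 to 1.137 with the hypomorph in Cy5 and -0.854 to -0.672 in Cy3. Those of embryo 3 were 0.339 and 0.653 in Cy5, and -0.477 and -0.746 in Cy3. Array medians of embryos 1 and 5 lay between -0.259 and 0.308. The part of these markers or of the array medians in the split was not tested. In hypomorphic fibroblasts Bcl2l1 was at -0.16, -0.20, -0.40, -0.11 and 0.73 (mean -0.03 ± 0.44, SD, n = 5), with embryo 5 alone above the pool.

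The means of the tissues were weakly related across members. Across the 52 members the thymus and fibroblast means correlated with r = 0.23, against -0.11 across all named genes, and 32 of 52 members (61.5%) had means of the same sign in both tissues, against 41.8% of named genes. Before Dnmt3b r was -0.21 with 8 of 17 members of the same sign (47.1%), and after it r was 0.36 with 24 of 35 (68.6%). These are values across genes, which are not independent replicates. Before Dnmt3b, 0 of 17 members had 1 sign in all 10 embryos, and after it 4 of 35 did. In all thymus embryos 3 of 17 members before Dnmt3b had 1 sign (17.6%) and 5 of 35 after it (14.3%), against 8.85% of named genes. In all fibroblast embryos 3 of 17 did before it (17.6%) and 10 of 35 after it (28.6%), against 17.3%. The neighbours of Dnmt3b, Commd7 and Mapre1, were on both sides of the pool in thymus and below it in all 5 fibroblast embryos.

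**Figure D4:**
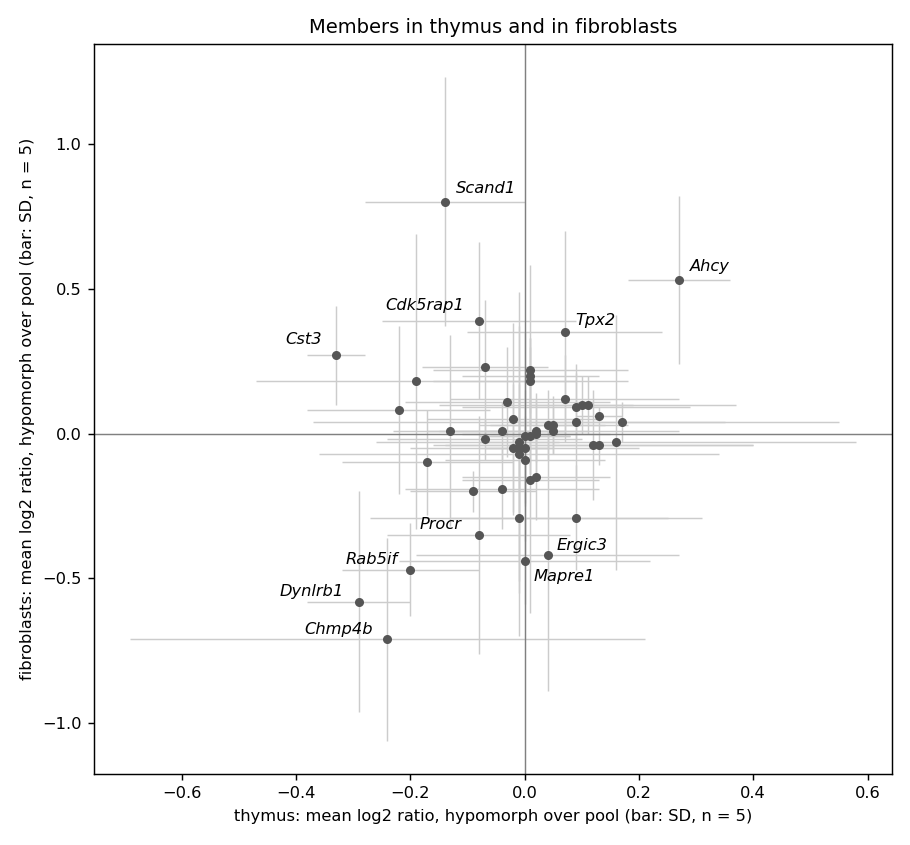
Mean log2 ratio of hypomorph over pool in thymus (x axis) and in fibroblasts (y axis) for the 52 measured members, with bars for the SD over 5 embryos of each tissue. Ahcy lies above 0 on both axes, Dynlrb1, Rab5if and Chmp4b below 0 on both, Cst3 and Scand1 below 0 in thymus and above it in fibroblasts, and most members lie near the centre.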

How the data were processed

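The deposited table holds, per the file headers and the values, 1 log2 ratio per spot for 25344 spots on 38 arrays. RNA was amplified and labelled with Cy3 or Cy5, per the labels' protocols. The sources used here do not state how the scans were extracted or normalized, and signal over background is unknown. No value exceeded 16.61 in size. Values at +16.61 (445 in number) were all on arrays with the hypomorph in Cy5, and values at -16.61 (423) all on arrays with it in Cy3, so the deposited log2 ratios run the same way in both orientations. The bounds do not show which RNA is on top, and the direction was taken from germ cell genes, chosen after their values were seen. Array medians ran from -0.887 to 1.137.

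Values at these bounds were left out, array medians were subtracted, and an embryo's value is the mean of its mean over each dye orientation. The embryo is the replicate. Probes were named through GEO's platform annotation and the RefSeq gene table (GRCm38.p6), and probes of 1 symbol were averaged: 21111 probes had 1 symbol, of which 17069 were current, 3974 updated and 68 kept. Features lacking a value in any embryo were dropped. Tests used limma 3.58.1 in R 4.3.3 (lmFit and eBayes, two-sided) over all features: 21947 in thymus, 22025 in fibroblasts and 21850 for the difference, with Benjamini-Hochberg adjusted p under 0.05. The pool is 1 control sample. The number of arrays limits the precision. Alternatives were the scaling, the sign and the dye orientation of arrays, doubted arrays, embryo weights, probes taken separately, single arrays with the embryo as a block, and leaving out each embryo.

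Members given by embryo are those that passed, those with 1 sign in all 10 embryos, the 4 highest and 4 lowest means per tissue and the neighbours of Dnmt3b. Cst3 has 1 sign in each tissue. Other members are given by group, and those named among them were chosen after their values were seen, Src by embryo for its split of signs in thymus. The members, groups and marker lists were chosen with earlier results of these data known. The order of genes along chromosome 2 follows their start positions in the RefSeq gene table, and the promoter windows are from RefSeq. Probe coordinates were not used, since the platform annotation names no build.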

Additional observations from a re-analysis of the deposited data

Results flagged for a closer look

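Cst3 passed in the test of the difference between the tissues, with thymus minus fibroblasts at -0.60 on the log2 scale. Its values in all 10 embryos and the settings in which the call was lost stand with its result.

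In a set of 30 groups of 5 embryos (15 members in 2 tissues), 2 embryos stood apart from the other 4 of their group by Dixon's criterion, which chance meets in about 1 of 20 groups. Dynlrb1 was at -0.13 in thymus embryo 3, nearer the pool than the other thymus embryos, which lay between -0.36 and -0.30. Bcl2l1 was at 0.73 in fibroblast embryo 5, above the pool, while the other fibroblast embryos lay between -0.40 and -0.11.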

How the results depend on the processing

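With 0 of 52 members passing in thymus and 0 in fibroblasts, the count stayed at 0 with values as deposited, arrays scaled to equal spread, bounded values kept, print blocks centred (added after seeing the data) and probes taken separately. In thymus it was 4 with embryo weights (Ahcy, Cst3, Dynlrb1 and Rab5if, 1.14% of features passing) and 3 over single arrays with the embryo as a block (Ahcy, Cst3 and Dynlrb1, 1.88%). In fibroblasts it was 13 over single arrays (9.58%), 2 without array 4 of embryo 4 (0.378%), and 0 without that array and arrays 2 and 4 of embryo 1 (0.032%). Leaving out each embryo gave 0 in thymus and 0 to 1 in fibroblasts, where the count of 1 was without embryo 4 (0.172% of features). Settings that leave the dye effect in the ratio passed many features: with the sign turned on Cy3 arrays 21 members in thymus and 26 in fibroblasts (41.5% and 51.4% of features), with the hypomorph in Cy5 alone 5 and 16 (22.1% and 28.5%), and in Cy3 alone 11 and 20 (23.8% and 36.8%).

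For thymus minus fibroblasts, where 1 member passed (0.412% of features), leaving out each embryo gave 0 to 3. The count was 3 without fibroblast embryo 4 (1.71% of features) and without fibroblast embryo 5 (0.883%). Where it was 0, between 0.00455% and 0.0595% of features passed. The embryo number as a replicate block gave 0 (Cst3 -0.60, adjusted p = 0.0759 by limma). Embryos of the same number are different embryos in the 2 tissues, and their deviations from the tissue means correlated between -0.04 and 0.09, with 1 of 5 thymus embryos matching its own number best.

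Of 8, 13 and 4 members with 1 sign in thymus, fibroblasts and both, values as deposited gave 5, 13 and 2 (9.97%, 12.4% and 0.446% of named genes). The fibroblast count was 22 with the hypomorph in Cy5 alone (40.4% of named genes), and the thymus count 20 in Cy3 alone (36.2%). In both tissues it was 7 in Cy5 alone and 8 in Cy3 alone, where 19.4% and 21.8% of named genes had 1 sign.

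Of 265 values of single members under an alternative, 209 kept their direction and side of the threshold, 34 passed where the main value did not, 7 no longer passed (all of Cst3, thymus minus fibroblasts) and 15 changed sign. With the sign turned on Cy3 arrays the thymus values were Cst3 0.11, Asip -0.31, Dynlrb1 0.18, Rab5if 0.10 and Pdrg1 0.04, and the fibroblast values Asip -0.27, Dynlrb1 0.21, Rab5if 0.23, Chmp4b 0.19, Mapre1 0.03, Scand1 -0.04 and Commd7 0.25. With the hypomorph in Cy5 alone Asip was -0.18 in thymus and -0.21 in fibroblasts, and Commd7 0.05 in fibroblasts. The cause was not tested beyond the dye effect that these settings retain by construction.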
